A study of Mus musculus with 8 samples.

Results

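The Slco and Slc22 genes encode carriers that take organic anions, organic cations and carnitine into cells. The set described here holds every probe set annotated to a single gene symbol that starts with Slco and a digit or with Slc22a, except Slco1a1, and comes to 58 of the 45101 probe sets on the array. They read 35 genes, 14 of them Slco and 21 Slc22, of which 19 were read by 1 probe set and 16 by several. A further probe set, annotated to both Slc22a29 and Slc22a30, was left out. RefSeq lists 1 of the genes, Slco6b1, as a long noncoding RNA. It is counted among the carriers because the set goes by gene symbol. Their signals come from 8 Affymetrix mouse genome arrays of liver RNA, 2 for each of 4 groups, with RNA of 3 BALB/c mice, 8 weeks of age, pooled on every array. All mice had received a recombinant adenovirus (rAd.) 5 days before a 78% liver resection. The virus carried human A20, an inhibitor of NF-κB, or the control transgene β-galactosidase (βgal), and reached 30% to 40% of hepatocytes according to the sample records. The post-A20 and post-βgal arrays hold the remnant liver 24 h after resection, and the pre-A20 and pre-βgal arrays hold the lobes removed at resection. In the records the treatment text of both post-A20 samples repeats the βgal wording, while title, source name and description all name A20. No group without virus was part of the arrays, so every difference described is between livers that all carried an adenovirus. The study describes the 2 arrays of a group as biological replicates. The p-values measure the spread between these pools, not between single mice, and precision is limited by how few arrays there are.

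Hepatocytes clear bile acids, bilirubin conjugates, hormones, drugs and toxins from sinusoidal blood. The Slco genes encode the organic anion transporting polypeptides (Oatp), which work without sodium, and the Slc22 genes encode organic anion transporters (Oat), organic cation transporters (Oct) and the carnitine carriers (Octn). Hepatic uptake carriers are known to depend on liver-enriched transcription factors such as HNF1, HNF4 and C/EBP, on nuclear receptors and, in rodents, on growth hormone, and many of them are known to fall during the acute phase response.

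RefSeq promoter windows, from 250 bases before to 50 bases after a start site, were found for 31 of the 35 genes, 36 windows in all. The other 4 are Slc22a7, Slc22a21, Slco3a1 and Slco5a1. Windows of the 4 genes with the largest fold changes among those that passed a test are printed as a description, and no result below rests on the sequences. Matches to 6 motifs, on either strand, are in capitals. The motifs were HNF1 (GTTAATNAT), HNF4 (CAAAGTCCA), C/EBP (TTGCNNAA), AP-1 (TGANTCA), NF-κB (GGGANTTTC) and the TATA box (TATAAA), with N for any base. All coordinates are those of GRCm38.p6. The window of Slco1b2 is chr6:141629268-141629567 (+), that of Slc22a30 chr19:8405056-8405355 (-), that of Slc22a29 chr19:8218851-8219150 (-) and that of Slc22a5 chr11:53891654-53891953 (-).
Slco1b2: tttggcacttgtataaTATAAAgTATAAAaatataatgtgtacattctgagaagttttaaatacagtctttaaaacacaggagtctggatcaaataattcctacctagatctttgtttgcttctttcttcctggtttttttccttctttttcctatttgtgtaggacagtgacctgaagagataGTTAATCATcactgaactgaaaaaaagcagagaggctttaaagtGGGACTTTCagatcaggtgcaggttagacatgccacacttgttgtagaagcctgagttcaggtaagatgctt
Slc22a30: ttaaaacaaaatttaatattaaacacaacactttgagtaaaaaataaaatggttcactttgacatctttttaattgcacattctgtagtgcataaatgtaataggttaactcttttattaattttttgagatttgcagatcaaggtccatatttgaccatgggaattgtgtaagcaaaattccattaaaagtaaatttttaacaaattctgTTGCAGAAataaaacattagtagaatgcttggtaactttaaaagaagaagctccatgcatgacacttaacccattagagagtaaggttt
Slc22a29: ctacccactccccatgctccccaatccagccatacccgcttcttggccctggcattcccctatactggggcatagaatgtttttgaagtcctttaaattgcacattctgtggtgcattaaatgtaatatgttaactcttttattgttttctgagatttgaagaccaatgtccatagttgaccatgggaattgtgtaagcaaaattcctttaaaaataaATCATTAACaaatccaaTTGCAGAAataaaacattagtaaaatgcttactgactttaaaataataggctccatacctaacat
Slc22a5: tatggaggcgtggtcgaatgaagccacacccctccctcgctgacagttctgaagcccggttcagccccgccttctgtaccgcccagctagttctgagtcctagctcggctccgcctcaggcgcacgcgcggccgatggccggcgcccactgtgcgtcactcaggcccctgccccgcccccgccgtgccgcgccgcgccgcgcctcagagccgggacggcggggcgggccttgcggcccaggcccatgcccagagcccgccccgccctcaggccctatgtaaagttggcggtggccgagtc

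In the window of Slco1b2 the TATA box letters began at −234 and at −227 relative to the start site, the HNF1 letters at −66 and the NF-κB letters at −22. HNF1 letters were found in 2 of the 31 genes and in 0.801% of all 32851 windows of the table, and NF-κB letters in 1 of the 31 genes and in 1.11% of all windows. Slc22a29 had HNF1 letters at −32, on the other strand, and C/EBP letters at −15, and Slc22a30 had the same C/EBP letters at −39. C/EBP letters were found in 4 genes and in 10.8% of all windows, TATA box letters in 6 genes and in 13.6%, AP-1 letters in 2 genes and in 7.81%, and HNF4 letters in 0 genes and in 0.475%. Slc22a5 had none of these letters in its window. These matches describe letters only. The window of Slc22a29 lies within the RefSeq span of that gene (8160168 to 8253375), not at its outer end. Aligned end to end, the windows of Slc22a29 and Slc22a30 were identical at 66.5% of the positions, against 47.9% for Slc22a27 with Slc22a29 and 46.7% for Slc22a27 with Slc22a30.

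Where a gene had several probe sets, the one of highest mean signal stood for it. Signals were taken as log2 after adding 16, and a probe set entered the test if its mean reached 40 in 1 group or more. In this way 34 of the 35 genes were tested among 17790 genes in all. The exception was Slco4c1, a carrier of the kidney, with signals of 6.48 to 37.4 over both of its probe sets. A gene was taken as changed at an adjusted p under 0.05 from limma, with Benjamini-Hochberg adjustment over all genes. In RNA of whole tissue, fewer cells of a type and less RNA per cell cannot be told apart. Of the 34 carriers, 8 changed in at least 1 of 7 comparisons, with 13 such values in all.

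After resection, post-A20 against post-βgal, 0 carriers were higher and 0 were lower by limma, where 0.0956% of all genes were higher and 0.236% lower. At an unadjusted p under 0.05, 11 of the 34 carriers were higher and 1 was lower, where 10.1% of all genes were higher and 9.56% lower. By the criterion of a fold change whose 90% interval starts at 1.5 or above, 3 carriers were higher, Slc22a30, Slco1b2 and Slco2a1, and 1.24% of all genes met it in either direction. The median log2 fold change of the carriers was 0.19, against 0.03 over all genes. Before resection, pre-A20 against pre-βgal, 1 carrier was higher and 2 were lower, where 0.714% of all genes were higher and 1.78% lower, and the medians were −0.02 and −0.03.

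In A20 livers, post-A20 against pre-A20, 0 carriers were higher and 1 was lower, against 0.63% and 0.382% of all genes, with medians of 0.05 and 0.02. At an unadjusted p under 0.05 by limma, 8 carriers were higher and 2 lower, against 8.88% and 6.54% of all genes. In βgal livers, post-βgal against pre-βgal, 1 carrier was higher and 0 were lower, against 1.5% and 0.748% of all genes. Here 29 of the 34 carriers had a negative log2 fold change, as had 57.5% of all genes, with a median of −0.20 against −0.05 over all genes. At an unadjusted p under 0.05, 1 carrier was higher and 6 were lower, where 9.74% of all genes were higher and 12.4% lower. The 7 carriers past this limit in either direction are a share near that of all genes. By class, a positive value was seen in this comparison for 0 of 5 Oatp1 genes (median −0.16), 0 of 5 genes of the Oatp2 to Oatp5 families (−0.26), 1 of 3 Oatp6 genes (−0.22), 3 of 6 cation and carnitine carriers (−0.03), 1 of 11 organic anion transporters (−0.24) and 0 of 4 other Slc22 genes (−0.28), against 42.5% of all genes. The comparison post-A20 against post-βgal and the comparison post-βgal against pre-βgal share the post-βgal arrays, so their values are not independent of each other.

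**Figure D1:**
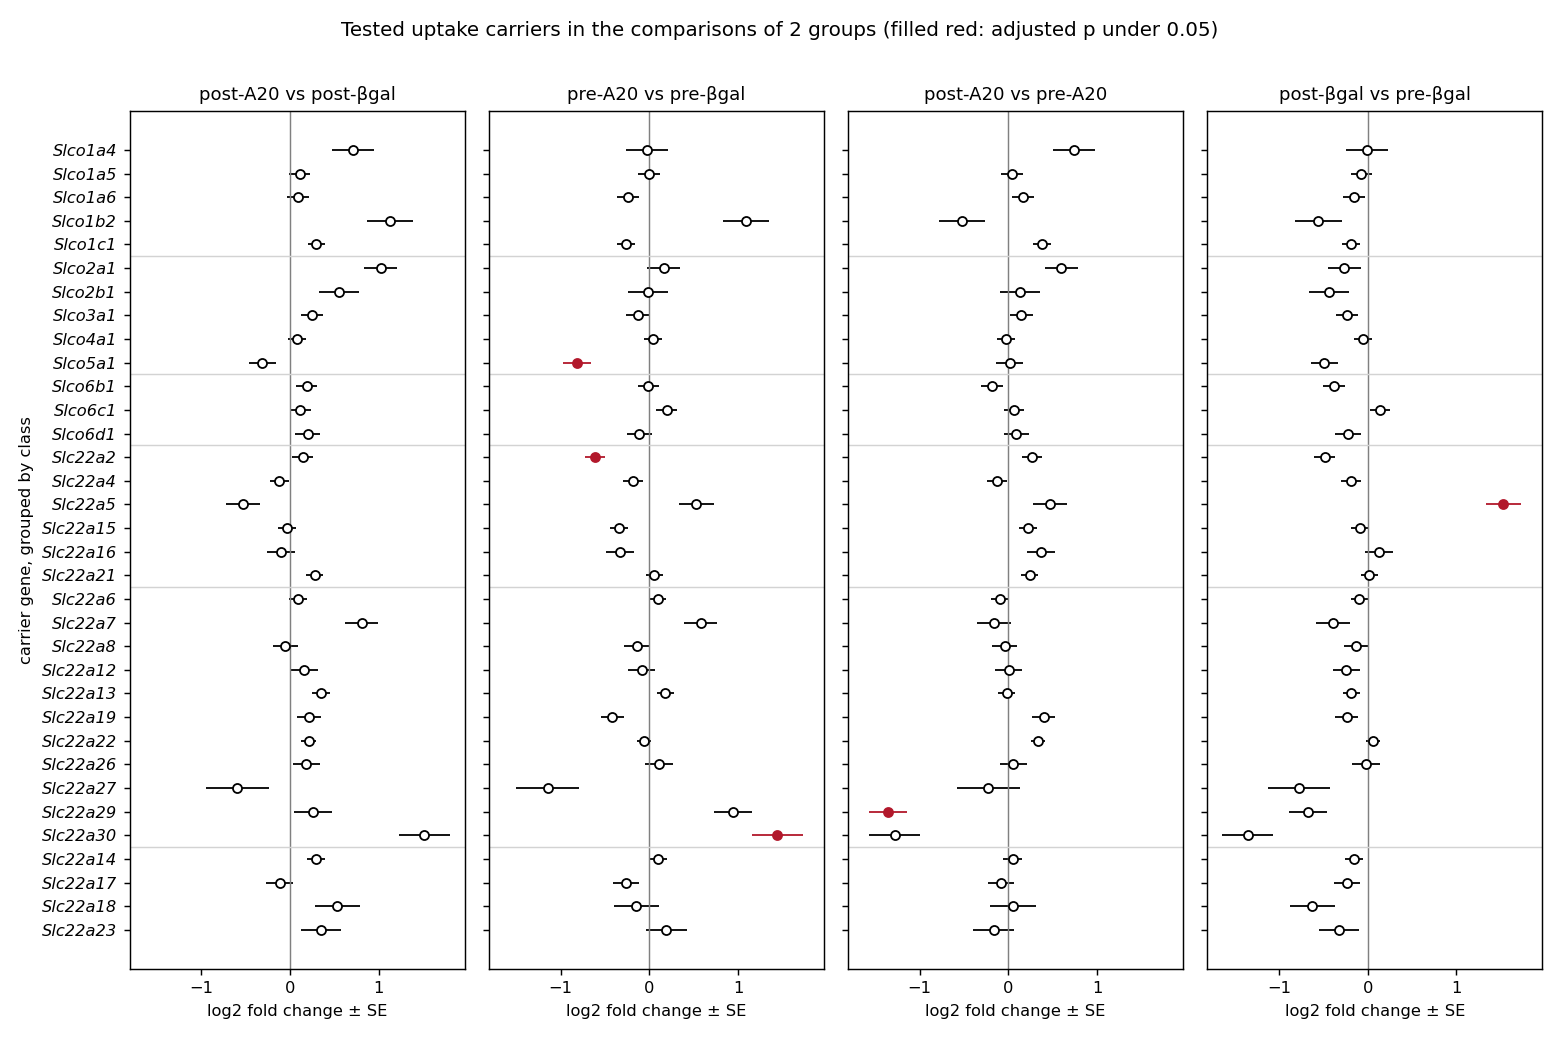
Log2 fold change with its standard error (horizontal axis) of the 34 carriers tested (vertical axis, grey lines between classes) in the 4 comparisons of 2 groups, with values that passed the test in filled red. Slc22a30 lies to the right in both comparisons of A20 with βgal and to the left in both comparisons of after with before resection, and Slc22a5 stands alone on the right in post-βgal against pre-βgal.

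Averaged over both times, 4 carriers were higher and 1 was lower with A20, where 2.08% of all genes were higher and 3.31% lower. The medians were 0.07 for the carriers and −0.00 for all genes. Averaged over both transgenes, 1 carrier was higher and 2 were lower after resection than before, where 2.83% of all genes were higher and 1.93% lower, and the medians were −0.08 and −0.01. The difference between the responses to resection, A20 minus βgal, called 0 carriers and 0% of all genes by limma, with a smallest adjusted p of 0.0646 over all genes. At an unadjusted p under 0.05 there were 5 carriers with a positive and 1 with a negative difference, where 9.97% of all genes had a positive and 5.71% a negative one, and 0 carriers met the interval criterion. The median difference of the carriers was 0.22, against 0.05 over all genes, and 30 of 34 were positive, as were 56.9% of all genes.

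**Figure D2:**
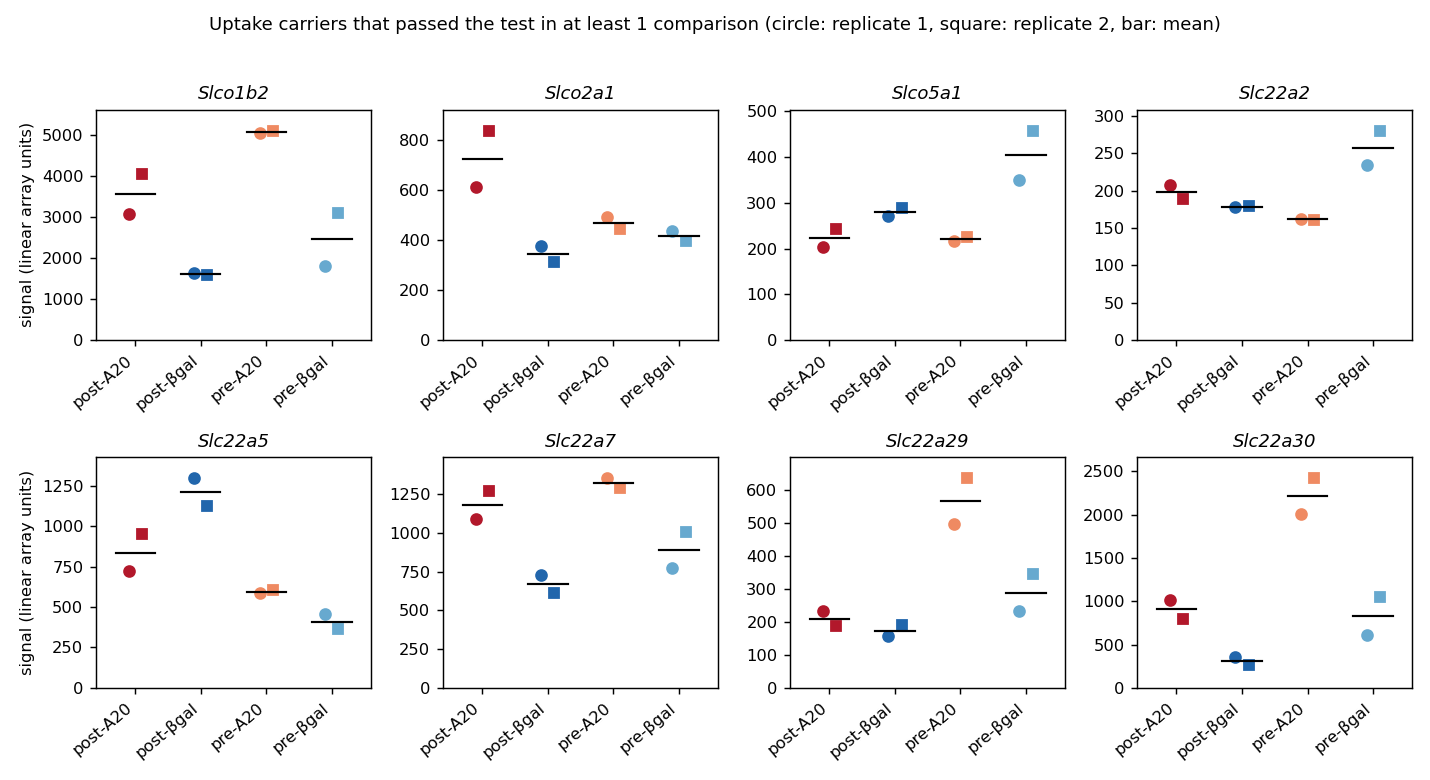
Signal (vertical axis, linear array units, from 0) of the 8 carriers that passed the test in at least 1 comparison, by group (horizontal axis), with circles for replicate 1, squares for replicate 2 and bars for the mean of 2 arrays. The A20 arrays of Slco1b2, Slc22a7 and Slc22a30 lie above the βgal arrays of the same time, and the post-βgal arrays of Slc22a5 lie above all others.

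Slco1b2 encodes Oatp1b2, the carrier of the sinusoidal membrane for bile acids, bilirubin and many drugs and toxins. Through its probe set of highest mean (1449394_at) the signal was 3075 and 4046 in post-A20, 1639 and 1580 in post-βgal, 5057 and 5105 in pre-A20, and 1809 and 3109 in pre-βgal. Both A20 arrays were above both βgal arrays at either time. Averaged over the times, Slco1b2 was higher with A20 by a log2 fold change of 1.11 (standard error 0.18, 2.16-fold, adjusted p = 0.0246). After resection the value was 1.12 (adjusted p = 0.106) and before it 1.09 (adjusted p = 0.0714), neither past the threshold, and the difference between the responses was 0.03. Averaged over the transgenes, after against before resection gave −0.54 (adjusted p = 0.155). The call with A20 held without either pre-βgal array (adjusted p = 0.0238 without replicate 1 and 0.00423 without replicate 2) and was lost without any 1 of the other 6 (0.0639 to 0.102).

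The other probe sets of Slco1b2 did not all move the same way. Probe set 1452494_s_at gave 2386 and 3565 in post-A20, 427 and 1159 in post-βgal, 3988 and 5320 in pre-A20, and 355 and 2075 in pre-βgal. Probe set 1427826_a_at gave 526 and 1451 in post-A20, 35.3 and 386 in post-βgal, 1263 and 1646 in pre-A20, and 52.4 and 492 in pre-βgal. In both, every A20 array was above every βgal array of its time, and the lowest array of each time was the βgal replicate 1 array. Probe set 1427825_at gave 325 and 379 in post-A20, 333 and 331 in post-βgal, 349 and 312 in pre-A20, and 462 and 561 in pre-βgal. Probe set 1452569_at gave 124 and 116 in post-A20, 131 and 116 in post-βgal, 114 and 115 in pre-A20, and 152 and 144 in pre-βgal. In these last probe sets the pre-βgal arrays were the highest. The log2 fold change with A20, averaged over the times, was thus 2.80 (1427826_a_at), 2.21 (1452494_s_at), 1.11 (1449394_at), −0.26 (1427825_at) and −0.18 (1452569_at). With the mean of all its probe sets in place of the one of highest mean, the value was 1.13 with an adjusted p of 0.0553, no longer past the threshold.

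The arrays that were lowest in 1452494_s_at and 1427826_a_at also had high 3′ to 5′ ratios of the control probe sets, a measure of RNA integrity. For β-actin, the control probe sets at the 3′ end were 3.64 times as bright as those at the 5′ end in post-βgal replicate 1 and 6.997 times in pre-βgal replicate 1, against 1.27 to 1.62 times on the other 6 arrays. Both high ratios were on βgal arrays, so ratio and transgene cannot be fully told apart. The cause of the low values was not tested. In 1427826_a_at the log2 signal of replicate 1 minus that of replicate 2 was −2.97 in post-βgal and −2.89 in pre-βgal, where the 1st percentile over all 42703 probe sets kept was −1.01 and −1.37. In 1452494_s_at the same differences were −1.41 and −2.50, in 1449394_at 0.05 and −0.78, in 1427825_at 0.01 and −0.27, and in 1452569_at 0.15 and 0.07. Through 1449394_at, Slco1b2 was higher with A20, averaged over the times, by 0.93 with both βgal replicate 1 arrays left out, a choice made after the values were seen (adjusted p = 0.0365), and by 0.90 with the β-actin ratio as a covariate (adjusted p = 0.0159).

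**Figure D3:**
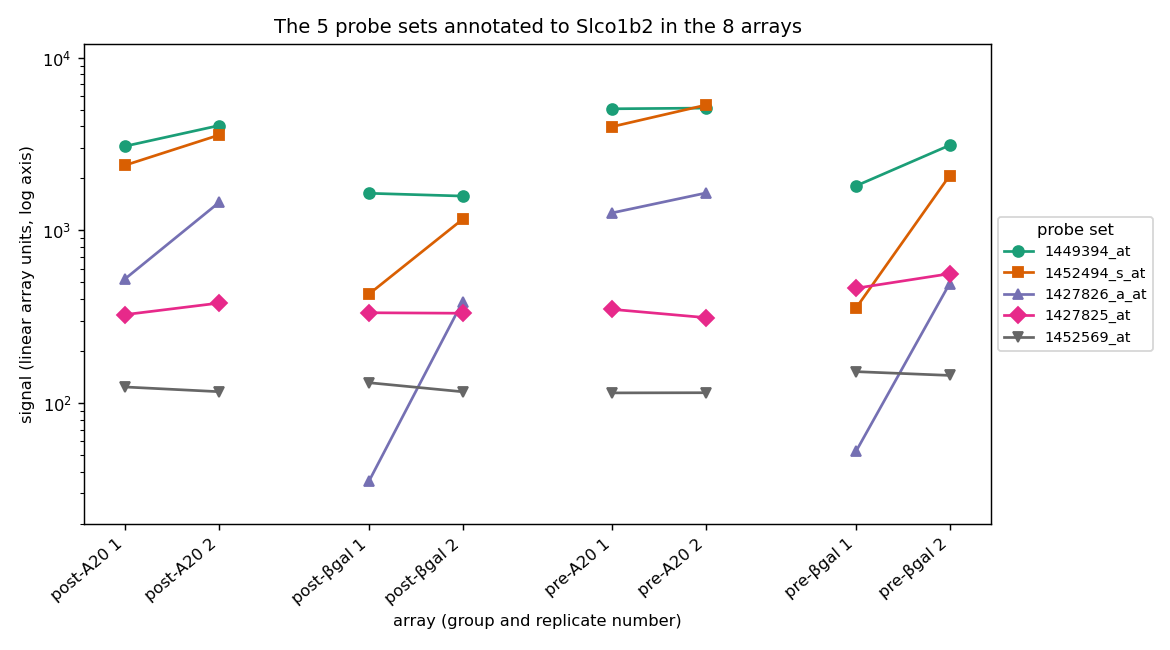
Signal (vertical axis, linear array units on a log axis) of the 5 probe sets annotated to Slco1b2 on each of the 8 arrays (horizontal axis), with lines joining the 2 arrays of a group. Heights of different probe sets cannot be compared with each other; 1427826_a_at drops to 35.3 in post-βgal replicate 1 and 52.4 in pre-βgal replicate 1.

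Slco1a4 encodes Oatp1a4, a further sinusoidal Oatp with bile acids and digoxin among its substrates. Its signal was 701 and 1149 in post-A20, 584 and 504 in post-βgal, 536 and 530 in pre-A20, and 592 and 499 in pre-βgal. Both post-A20 arrays were above all other arrays. The log2 fold change was 0.71 in post-A20 against post-βgal (adjusted p = 0.182) and 0.74 in post-A20 against pre-A20 (adjusted p = 0.194), neither past the threshold, and the post-A20 arrays differed from each other by 0.70, at the 0.57th percentile of such differences. The other Oatp1 genes, Slco1a5, Slco1a6 and Slco1c1, did not pass the test in any comparison.

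Slco2b1, a carrier of steroid sulfates and statins, gave 1396 and 1310 in post-A20, 894 and 938 in post-βgal, 1319 and 1149 in pre-A20, and 990 and 1556 in pre-βgal (1454777_at). The post-βgal arrays were the lowest of the 8. The log2 fold change was 0.55 in post-A20 against post-βgal (adjusted p = 0.235) and −0.43 in post-βgal against pre-βgal (adjusted p = 0.298). Probe set 1433933_s_at gave 1142 and 1234 in post-A20, 940 and 723 in post-βgal, 1394 and 1421 in pre-A20, and 1220 and 1129 in pre-βgal, and probe set 1458171_at stayed between 221 and 291 on all arrays.

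Slco2a1 encodes the prostaglandin transporter, known from endothelium as well as from epithelia. Its signal (1420913_at) was 611 and 839 in post-A20, 376 and 315 in post-βgal, 494 and 443 in pre-A20, and 436 and 397 in pre-βgal. The post-A20 arrays were the highest and the post-βgal arrays the lowest of the 8. Averaged over the times, Slco2a1 was higher with A20 by 0.59 (standard error 0.13, 1.51-fold, adjusted p = 0.0460). After resection the value was 1.02 (adjusted p = 0.0689) and before it 0.16 (adjusted p = 0.644), and the difference between the responses was 0.86 (unadjusted p = 0.0122 by limma, adjusted p = 0.233). The call held without pre-βgal replicate 2 (adjusted p = 0.0421) and was lost without any 1 of the other 7 arrays (0.0650 to 0.137), after median centring (0.0538), with a replicate block within transgene (0.43, adjusted p = 0.152), with every probe set tested as its own feature (0.0517) and without both βgal replicate 1 arrays (0.0754). Its other 3 probe sets had log2 fold changes with A20, averaged over the times, of 0.63 (1450032_at), 0.27 (1420914_at) and 0.17 (1444242_at). Their signals were 313 and 500 in post-A20, 238 and 226 in post-βgal, 516 and 438 in pre-A20, and 278 and 384 in pre-βgal for 1450032_at, and 59.2 to 95.8 and 273 to 355 over all arrays for the other two. The summed signal of 8 markers of sinusoidal endothelium was 3360 and 3688 in post-A20, and 3807 and 3394 in post-βgal. It was 4541 and 4693 in pre-A20, and 3706 and 3781 in pre-βgal, with 0 markers at a signal of 0. The part of endothelium in the Slco2a1 result was not tested.

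Slco5a1, a further Oatp gene, gave 204 and 243 in post-A20, 272 and 289 in post-βgal, 216 and 226 in pre-A20, and 350 and 458 in pre-βgal (1439588_at). The A20 arrays lay below the βgal arrays of the same time. Array medians were 153 to 166, and whether signals of this size stand above background was not tested. It was lower with A20 averaged over the times, at −0.56 (standard error 0.11, adjusted p = 0.0338), and before resection, at −0.81 (standard error 0.15, adjusted p = 0.0468). Its other probe set (1440874_at) gave 272 and 164 in post-A20, 121 and 154 in post-βgal, 146 and 213 in pre-A20, and 149 and 210 in pre-βgal, with log2 fold changes of 0.29 averaged over the times and −0.01 before resection. With the mean of both probe sets the values were −0.14 (adjusted p = 0.475) and −0.41 (adjusted p = 0.189). The averaged call held only without a pre-βgal array (adjusted p = 0.0241 and 0.0214, against 0.0926 to 0.112 without any 1 of the other 6 arrays). The call before resection held only without pre-βgal replicate 2 (0.0441, against 0.0545 to 0.280 without any 1 of the other 7), and was lost with only the 4 arrays compared (0.150) or without both βgal replicate 1 arrays (0.0608).

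Slco4a1, a carrier of thyroid hormones, gave 211 and 209 in post-A20, 210 and 189 in post-βgal, 207 and 223 in pre-A20, and 210 and 205 in pre-βgal, and its other probe set 60.3 to 86.7. Slco6d1, from the Oatp6 family known from testis, gave 306 and 310 in post-A20, 286 and 249 in post-βgal, 320 and 260 in pre-A20, and 295 and 333 in pre-βgal. Neither passed the test in any comparison.

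Slc22a5 encodes Octn2, the sodium-dependent carnitine carrier, and carnitine is needed to bring long-chain fatty acids into mitochondria. Its signal (1450395_at) was 723 and 950 in post-A20, 1295 and 1122 in post-βgal, 584 and 607 in pre-A20, and 454 and 364 in pre-βgal. The 4 groups did not overlap, and the post-βgal arrays were the highest and the pre-βgal arrays the lowest. Slc22a5 rose after resection in βgal livers, by a log2 fold change of 1.53 (standard error 0.19, 2.89-fold, adjusted p = 0.0151), and averaged over the transgenes, by 1.00 (standard error 0.14, adjusted p = 0.00945). In A20 livers the value was 0.47 (adjusted p = 0.303). The difference between the responses was −1.06 (standard error 0.27, unadjusted p = 0.00487 by limma, adjusted p = 0.212), so it did not pass the test over all genes. With A20 against βgal the value was −0.53 after resection (adjusted p = 0.201) and 0.53 before it (adjusted p = 0.170), and 0.00 averaged.

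The call in βgal livers was lost without post-βgal replicate 1 (adjusted p = 0.113) or replicate 2 (0.0763), and when the fit held only the 4 arrays compared (0.126). The averaged call was lost without post-A20 replicate 2 (0.0544). The other probe set of Slc22a5 (1421848_at) gave 242 and 388 in post-A20, 193 and 412 in post-βgal, 261 and 235 in pre-A20, and 108 and 196 in pre-βgal, where both βgal replicate 1 arrays were the lowest of their group. Its log2 fold change in post-βgal against pre-βgal was 0.88, and averaged over the transgenes 0.59, with adjusted p over all probe sets of 0.246 and 0.294. Slc22a4, the ergothioneine carrier, and Slc22a21, a carnitine carrier in mice, lie beside Slc22a5 on chromosome 11 and did not pass the test in any comparison.

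Slc22a2 encodes Oct2, the organic cation transporter of the kidney. Its signal was 208 and 189 in post-A20, 178 and 179 in post-βgal, 163 and 161 in pre-A20, and 234 and 280 in pre-βgal. Array medians were 153 to 166, and whether such signals stand above background was not tested. The pre-βgal arrays were the highest and the pre-A20 arrays the lowest. Before resection it was lower with A20, at −0.61 (standard error 0.11, 1.53-fold, adjusted p = 0.0449), while after resection the value was 0.14 (adjusted p = 0.508). The difference between the responses was 0.75 (unadjusted p = 0.00173 by limma, adjusted p = 0.212). Leaving out 1 array at a time gave −0.74 to −0.49, and the call held only without pre-βgal replicate 2. It was lost with only the 4 arrays compared (limma, adjusted p = 0.150) and without both βgal replicate 1 arrays. With a replicate block within transgene, which reads A20 against βgal at the fitted level of the replicate 1 arrays, it was also lost (0.0658).

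Slc22a16, a carnitine carrier known from testis, gave 838 and 941 in post-A20, 950 and 955 in post-βgal, 736 and 640 in pre-A20, and 825 and 912 in pre-βgal. The pre-A20 arrays were the lowest, with a log2 fold change of −0.33 against pre-βgal (adjusted p = 0.270). Slc22a15 gave 274 and 264 in post-A20, 277 and 274 in post-βgal, 232 and 224 in pre-A20, and 292 and 295 in pre-βgal, at −0.34 before resection (adjusted p = 0.118), and its other probe set gave 41.0 to 72.8.

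Slc22a30 belongs to a group of rodent organic anion transporter genes that lie side by side on chromosome 19. Its signal was 1018 and 794 in post-A20, 359 and 259 in post-βgal, 2013 and 2419 in pre-A20, and 611 and 1053 in pre-βgal. Both A20 arrays were above both βgal arrays at either time, and both post arrays below both pre arrays for either transgene. It was higher with A20 averaged over the times, at 1.48 (standard error 0.20, 2.78-fold, adjusted p = 0.0176), and before resection, at 1.44 (standard error 0.29, adjusted p = 0.0492), and after resection the value was 1.51 (adjusted p = 0.0734). It fell after resection by 1.32 on the log2 scale averaged over the transgenes (standard error 0.20, 2.49-fold, adjusted p = 0.0142), with −1.28 in A20 livers (adjusted p = 0.0901) and −1.35 in βgal livers (adjusted p = 0.0600). The difference between the responses was 0.07 (95% interval −0.88 to 1.02).

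The averaged call with A20 was lost without post-A20 replicate 1 (adjusted p = 0.0623) or 2 (0.0643), post-βgal replicate 1 (0.0510) or 2 (0.0619) or pre-A20 replicate 2 (0.0841). The averaged call with resection was lost without post-A20 replicate 2 (0.0798), post-βgal replicate 2 (0.0608) or pre-A20 replicate 1 (0.0524) or 2 (0.0651). For the call before resection, leaving out 1 array at a time gave 1.06 to 1.83, and the call held only without pre-βgal replicate 2. It was lost with quantile normalization (limma, adjusted p = 0.0523), a filter at a mean of 100 (0.0528) or every probe set tested as its own feature (0.0528). A replicate block (0.0517), only the 4 arrays compared (0.147) or both βgal replicate 1 arrays left out also lost it. So did a replicate block within transgene (0.0503), which reads A20 against βgal at the fitted level of the replicate 1 arrays.

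Slc22a29, the neighbour of Slc22a30, gave 232 and 188 in post-A20, 156 and 189 in post-βgal, 496 and 635 in pre-A20, and 233 and 345 in pre-βgal. The pre-A20 arrays were the highest of the 8. The post arrays were near the array medians of 153 to 166, and whether such signals stand above background was not tested. It fell after resection by 1.36 on the log2 scale in A20 livers (standard error 0.22, 2.57-fold, adjusted p = 0.0365) and by 1.02 averaged over the transgenes (standard error 0.15, adjusted p = 0.0128), with −0.67 in βgal livers (adjusted p = 0.135). With A20 the value was 0.26 after resection (adjusted p = 0.519) and 0.95 before it (adjusted p = 0.0632). The call in A20 livers held only without a pre-βgal array (0.0108 and 0.0107, against 0.0623 to 0.255 without any 1 of the other 6), and the averaged one was lost without post-A20 replicate 2 (0.0703), post-βgal replicate 1 (0.0507) or pre-A20 replicate 2 (0.0578).

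Slc22a27 gave 107 and 91.0 in post-A20, 101 and 241 in post-βgal, 89.0 and 156 in pre-A20, and 281 and 281 in pre-βgal. The pre-βgal arrays were the highest, with a log2 fold change of −1.14 in pre-A20 against pre-βgal (adjusted p = 0.124), which did not pass the test. The probe sets of Slc22a27 and Slc22a29 carry the suffix x, which the maker of the array gives to probe sets that can bind related transcripts, so reads of near-identical members of this gene group cannot be told apart with certainty. The probe set annotated to both Slc22a29 and Slc22a30, outside the set described, gave 100 and 83.6 in post-A20, 74.3 and 151 in post-βgal, 97.2 and 161 in pre-A20, and 169 and 206 in pre-βgal.

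Slc22a7 encodes Oat2, an organic anion transporter of the liver. Its signal was 1090 and 1272 in post-A20, 725 and 613 in post-βgal, 1352 and 1291 in pre-A20, and 771 and 1003 in pre-βgal. Both A20 arrays were above both βgal arrays at either time. Averaged over the times it was higher with A20 by 0.69 (standard error 0.13, 1.62-fold, adjusted p = 0.0338), with 0.81 after resection (adjusted p = 0.111) and 0.58 before it (adjusted p = 0.140). Averaged over the transgenes, after against before resection gave −0.28 (adjusted p = 0.290). Leaving out 1 array at a time gave 0.60 to 0.79, and the call held only without pre-βgal replicate 2. It was lost without both βgal replicate 1 arrays. With a replicate block within transgene, which reads A20 against βgal at the fitted level of the replicate 1 arrays, it was also lost (limma, adjusted p = 0.0630).

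Slc22a12, the urate carrier of the kidney, gave 493 and 432 in post-A20, 390 and 435 in post-βgal, 508 and 419 in pre-A20, and 486 and 494 in pre-βgal, and 249 to 334 through its other probe set. Slc22a26, also of the chromosome 19 group, gave 251 and 294 in post-A20, 220 and 256 in post-βgal, 246 and 277 in pre-A20, and 212 and 272 in pre-βgal, and 104 to 137 through its other probe set. Neither passed the test in any comparison.

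Slc22a18, an imprinted gene with a carrier-like product, gave 1993 and 1822 in post-A20, 1611 and 1069 in post-βgal, 1836 and 1840 in pre-A20, and 2487 and 1662 in pre-βgal (1417809_at). Its other probe set (1427531_a_at) gave 1375 and 1501 in post-A20, 740 and 963 in post-βgal, 1634 and 1370 in pre-A20, and 623 and 1467 in pre-βgal. The βgal replicate 1 arrays were the higher of their pairs in the first probe set and the lower in the second, and these are the arrays of high 3′ to 5′ ratio; the part of that ratio was not tested for this gene. Before resection the log2 fold change with A20 was −0.14 (adjusted p = 0.775) through the first and 0.63 through the second (adjusted p over all probe sets = 0.347).

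Slc22a23, an orphan carrier, gave 796 and 1066 in post-A20, 785 and 658 in post-βgal, 1154 and 931 in pre-A20, and 1044 and 783 in pre-βgal. Slc22a17, a receptor for lipocalin 2, gave 340 and 390 in post-A20, 388 and 406 in post-βgal, 402 and 374 in pre-A20, and 428 and 515 in pre-βgal. Slc22a14, known from sperm, gave 252 and 244 in post-A20, 209 and 190 in post-βgal, 240 and 239 in pre-A20, and 230 and 218 in pre-βgal. None of these 3 passed the test in any comparison. The remaining 13 carriers, Slc22a4, Slc22a6, Slc22a8, Slc22a13, Slc22a19, Slc22a21, Slc22a22, Slco1a5, Slco1a6, Slco1c1, Slco3a1, Slco6b1 and Slco6c1, had signals of 43.1 to 214 through the probe set used. Their log2 fold changes in the 4 comparisons of 2 groups lay between −0.42 and 0.40, with a smallest adjusted p of 0.104.

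In RefSeq positions on GRCm38, 7 of the carriers lie in 1 neighbourhood of chromosome 19 (no gap over 1 Mb), in the order Slc22a19, Slc22a26, Slc22a27, Slc22a29, Slc22a30, Slc22a8 and Slc22a6. The values of neighbours differed in sign and size. Averaged over the times, the log2 fold change with A20 was 1.48 for Slc22a30, 0.60 for Slc22a29 (adjusted p = 0.0611) and −0.87 for Slc22a27 (adjusted p = 0.0823), and after against before resection it was −1.32, −1.02 and −0.50 (adjusted p = 0.303 for the last). On chromosome 6, Slco1b2 stood between Slco1c1 and Slco1a4, with 5 carriers in the neighbourhood, and was the 1 of them that passed a test.

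**Figure D4:**
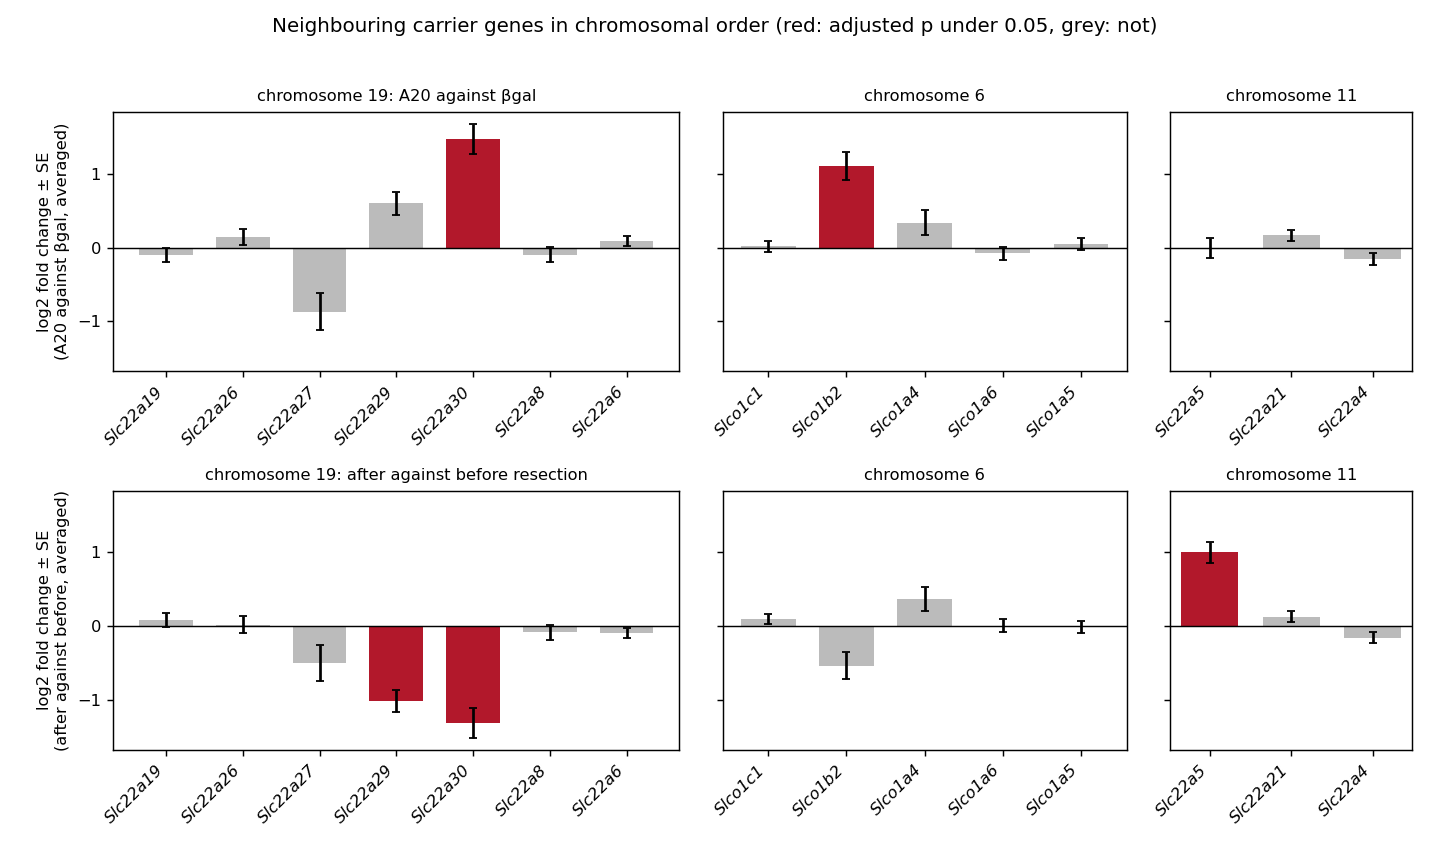
Log2 fold change with its standard error (vertical axis) of neighbouring carriers on chromosomes 19, 6 and 11 in chromosomal order (horizontal axis, not to scale), averaged over the times for A20 against βgal (upper panels) and over the transgenes for after against before resection (lower panels), with values that passed the test in red. Slc22a30 is at 1.48 above and −1.32 below, and the genes Slc22a8 and Slc22a6 next to it lie near 0.

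Of a list of 24 other hepatic carriers of bile acids and organic ions, 21 were tested. Averaged over the times, 3 were higher with A20 and 0 lower: Slc10a1, the sodium-dependent bile acid carrier Ntcp (1.19, adjusted p = 0.0251), Abcg5, a sterol exporter (0.72, adjusted p = 0.0301), and Abcb11, the bile salt export pump (0.54, adjusted p = 0.0455), where 2.08% of all genes were higher and 3.31% lower. For Abcb11 the average joined unlike values, 1.56 after resection (adjusted p = 0.0185) and −0.48 before it (adjusted p = 0.166). Their list had a median of −0.00, as had all genes. Slc10a1 gave 4144 and 6011 in post-A20, 1814 and 2063 in post-βgal, 6272 and 5674 in pre-A20, and 2239 and 3893 in pre-βgal, with both A20 arrays above both βgal arrays at either time. After resection, averaged over the transgenes, 0 were higher and 3 lower: Abcb11 (−1.09, adjusted p = 0.00454), Abcg8, the partner of Abcg5 (−0.94, adjusted p = 0.0143), and Slc47a1, an exporter of organic cations (−0.75, adjusted p = 0.0361), where 2.83% of all genes were higher and 1.93% lower. The value of Abcb11 was −0.07 in A20 livers (adjusted p = 0.882) and −2.11 in βgal livers (adjusted p = 0.00282), and the difference between the responses was 2.04 (adjusted p = 0.108). The list's median was −0.08, against −0.01 over all genes.

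Of 22 regulators and partners of uptake carriers, 20 were tested. Averaged over the times, 3 were higher with A20 and 0 lower: Nr1i3, the nuclear receptor CAR (1.61, adjusted p = 0.0152), Ppara, the receptor of fatty acids (1.24, adjusted p = 0.0296), and Ghr, the growth hormone receptor (0.86, adjusted p = 0.0176), beside the same 2.08% and 3.31% of all genes. The list's median was 0.16, against −0.00 over all genes. After resection, averaged over the transgenes, 0 were higher and 2 lower, Cebpa (−1.20, adjusted p = 0.0145) and Ghr (−0.98, adjusted p = 0.00573), beside the same 2.83% and 1.93% of all genes, with a median of −0.15 against −0.01.

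Array medians were 153 to 166, and replicates correlated at 0.969 to 0.988 over the 1 probe set read for each of the 17790 genes. The 8 hepatocyte markers, at signals of 1766 to 19358, were all above the minimum, and limma called 0 of them in any of the 7 comparisons. With A20 averaged over the times, 2 were higher at an unadjusted p under 0.05 by limma, where 11.4% of all genes were, and 0 met the interval criterion. There 7 of the 8 had a positive log2 fold change, as had 49.7% of all genes, with a median of 0.17 against −0.00. Their summed signal was 90759 and 98865 in post-A20, 88691 and 84154 in post-βgal, 95562 and 91624 in pre-A20, and 80974 and 86258 in pre-βgal. The summed signal of 7 neutrophil markers was 1907 and 1593 in post-A20, 4610 and 5516 in post-βgal, 1272 and 1290 in pre-A20, and 3081 and 2326 in pre-βgal. Averaged over the times, 4 of the 7 were lower with A20, where 3.31% of all genes were lower. The neutrophil sum was lower in the A20 arrays than in the βgal arrays of the same time. Of its 7 markers, 2 had a positive log2 fold change with A20 averaged over the times. The summed signal of 7 markers of stellate cells and fibroblasts was 5332 and 6482 in post-A20, 4447 and 4654 in post-βgal, 6039 and 6075 in pre-A20, and 4174 and 5150 in pre-βgal. That of 8 markers of Kupffer cells and macrophages was 6002 and 5571 in post-A20, 4536 and 5767 in post-βgal, 3903 and 3683 in pre-A20, and 6620 and 6087 in pre-βgal. These 8 did not move together. Averaged over the times, 1 was called higher and 1 lower with A20, where 2.08% of all genes were higher and 3.31% lower. With A20, 6 of the 8 had a negative log2 fold change before resection and 7 a positive one after it, against 55.1% and 54.6% of all genes. No marker was at a signal of 0 on any array. The part of these cells in the carrier results was not tested.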

How the data were processed

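The values are the normalized intensities that the authors deposited, linear and 1 per probe set and array. Their methods name dChip with invariant set normalization and perfect-match probes, and the sample records name MAS5; the sources used here do not say which one gave these values, which were taken as deposited. Of all probe sets, 34945 carried 1 gene symbol, and 64 control probe sets were left out. limma 3.58.1 in R 4.3.3 was fitted with 1 mean per group and a variance trend to the 42703 probe sets kept (4 residual and 3.73 prior degrees of freedom), 2-sided, for 7 comparisons. Signals per array are given for carriers that were called, had a mean of at least 200, or had 1 of the 2 largest changes of a comparison of 2 groups; for the other lists, at most 4 called genes a comparison and Slc10a1. Members and lists were chosen with earlier results of these data known. Alternatives changed scaling (quantile, median), filter (none, 100), offset (1, 32), variance model (no trend, robust), probe set rule (mean, each), criterion (a stand-in for the dChip bound), replicate block, arrays fitted and RNA integrity; 2 were added after the values were seen, variances moderated over the genes' probe sets alone and both βgal replicate 1 arrays left out. Promoter windows were aligned with Biopython 1.88, and figures were drawn with matplotlib 3.10.9.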

Additional observations from a re-analysis of the deposited data

How the results depend on the processing

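Each of the 13 called values kept its direction in every alternative run, and 222 of 317 repeats kept the call. Apart from the mean of a gene's probe sets, these runs read the same probe set of each gene. The variance models, the single replicate block and the fits of 4 arrays leave the fold change unaltered, so its direction could not change there. With A20 averaged over the times, 1 of 2 probe sets of Slco5a1 and 2 of 5 of Slco1b2 had the opposite sign, and 0 of 4 of Slco2a1. In the order pre-A20 against pre-βgal, post-A20 against post-βgal, post-A20 against pre-A20, and post-βgal against pre-βgal, the number of carriers called was 3, 0, 1 and 1. Of all genes, 2.50%, 0.332%, 1.01% and 2.25% were called. The number of carriers was 5, 4, 2 and 6 with an RNA integrity covariate, which also called more of all genes (6.15%, 3.83%, 5.91% and 13.3%). In fits of the 4 arrays concerned it was 0, 2, 2 and 0 (0.00562%, 1.36%, 2.84% and 0.045% of all genes). With variances moderated over the genes' probe sets alone (added after seeing the data) it was 5, 2, 1 and 3 (4.63%, 1.42%, 2.01% and 3.99%). With the mean of a gene's probe sets it was 4, 1, 1 and 3 (3.6%, 1.48%, 1.55% and 3.59%). The interval criterion gave 2, 3, 2 and 2 (2.15%, 1.24%, 1.6% and 2.09%). For A20 averaged over the times the criterion gave 2 in place of 5 (1.2% of all genes in place of 5.39%). The cause was not tested. Leaving out 1 array at a time gave 0 to 5, 0 to 4, 0 to 2 and 0 to 2 in the same order, 0 to 7 for A20 averaged and 0 to 4 for resection averaged, where the lone array of a group is assumed to vary like the others. The interaction gave 0 in all. How many of all genes were called also changed with the array left out.

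The labels do not say that equal replicate numbers share mice. Before samples were the resected lobes and after samples the remnant liver, so the pools may share mice. For qPCR the methods name matched pairs when possible. Deviations from the group mean correlated at 0.617 between pre-βgal and post-βgal and at −0.145 to 0.156 between the other pairs of groups. Both βgal replicate 1 arrays also had a high 3′ to 5′ ratio, and whether pools shared mice was not tested. The main fit took all arrays as unpaired, so its p-values leave out any pairing of before with after. A replicate block within transgene gave 2, 2, 1 and 5 carriers in the order above (5.32%, 6.68%, 3.86% and 8.91% of all genes). A single replicate block gave 2, 0, 1 and 1 (2.96%, 0.483%, 1.1% and 2.89% of all genes), with 6 for A20 averaged (6.98%). The block within transgene reads A20 against βgal at the fitted level of the replicate 1 arrays. Its first 2 counts are therefore not counts for group averages, and the βgal replicate 1 arrays are those of high 3′ to 5′ ratio.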
